A study of Mus musculus with 4 samples.

Results

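The chemokine system of lymphoid tissue inducer (LTi) cells was described from 58 of the 27179 genes in the deposited table. The members are 20 receptors (Ccr, Cxcr, Cx3cr1, Xcr1 and atypical Ackr genes) and 38 ligands (Ccl, Cxcl and Cx3cl1 genes), chosen by gene symbol alone. The table writes most mouse genes in human-style capitals, so symbols were matched without regard to case, and 10 of the 58 also match with mouse-style case. Ccr6, which was part of the sort, and Cxcr5 were left out by the choice of members and serve as checks.

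LTi cells are innate lymphoid cells that help to build and maintain lymphoid tissue in the gut. RNA was sequenced from such cells of the small intestine lamina propria of C57BL/6 mice, sorted as live, lineage-negative and CD127-positive cells without KLRG1, NK1.1 or NKp46 and with CCR6 on the surface. The 2 control libraries came from Gata3+/+ mice. The 2 Gata3-KO libraries came from Gata3fl/fl-VavCre mice, in which Cre recombinase under the Vav promoter, active in blood-forming cells and their descendants, acts on loxP-flanked Gata3. Gata3 encodes a zinc-finger protein that T cells and some innate lymphoid cells need in order to develop. The deletion can therefore reach other blood cells of the gut besides LTi cells. No source used here gives the age of the mice or says whether the controls carried Cre, and nothing states whether the libraries came from separate mice, so that the p-values measure the spread between these libraries, which may be technical.

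Chemokines are small secreted proteins, Cx3cl1 and Cxcl16 being also made in membrane-bound form, that guide cells along gradients through G-protein-coupled receptors. Atypical receptors bind chemokines without the usual G-protein signal and mostly clear them. In the gut, Ccl25 from the small-intestinal epithelium draws Ccr9-bearing lymphocytes, Ccl28 draws Ccr10-bearing plasma cells, Ccl20 acts on Ccr6 and Cxcl13 on Cxcr5. LTi cells are known for Ccr6, Cxcr5, Ccr7 and Cxcr6.

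Values are given as RPKM (reads per kilobase of gene length, scaled to the reads of the library), a length-scaled level, in the order control replicate 1, control replicate 2, Gata3-KO replicate 1, Gata3-KO replicate 2. Log2 differences are Gata3-KO minus control on the log2(RPKM + 1) scale, which understates the change of low genes, with their standard error (SE) and a two-sided adjusted p from limma (Benjamini-Hochberg over 14276 tested genes), and a gene was called at an adjusted p under 0.05. Depth was 14294708 and 12670034 reads for control and 24315878 and 23973995 for Gata3-KO, 1.79 times as many over the group. On the deposited scale the median tested gene lay 0.43 higher in Gata3-KO, and 8.97% of the tested genes were called (1182 higher, 8.28%, and 98 lower, 0.686%). After median-ratio scaling between libraries the median shift was 0.04 and 1.02% were called (83 higher, 0.581%, and 62 lower, 0.434%).

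Gata3 itself measured 84.3, 50.7, 34.5 and 23.3 RPKM, lower in both Gata3-KO libraries but not called (limma adjusted p = 0.0906). This value counts the whole gene and does not check a deletion of part of it. Il7r, which encodes the CD127 of the sort, stood at 143, 77.6, 61.2 and 45.7 RPKM. It was thus present in every library. Of 20 LTi and group 3 innate lymphoid markers, all with reads, Il17a rose and Il22 and Cd4 fell. The summed level of this list was 4684 and 3132 RPKM in control against 1735 and 2161 RPKM in Gata3-KO, and its median difference was −0.28 (−0.87 after scaling, against 0.04 for all tested genes). After scaling both Gata3-KO libraries lay below both controls for 13 of the 20, beside 25.5% of all tested genes. Ccr6 stood at 146, 63.3, 155 and 176 RPKM and Cxcr5 at 86.6, 48.5, 64.4 and 78.3 RPKM, and neither was called (limma adjusted p = 0.274 and 0.838). Markers of cells that the sort should remove were also present and moved with genotype. Of 24 B and plasma cell markers, 17 rose and 0 fell, with a summed level of 2597 and 1610 RPKM in control against 8092 and 6912 RPKM in Gata3-KO libraries. Of 17 tested T cell markers 6 rose (summed level over all 18 listed, 284 and 181 against 915 and 513 RPKM), and of 26 epithelial markers 16 rose (4588 and 5638 against 6695 and 12286 RPKM). After median-ratio scaling 1 B and plasma cell, 0 T cell (7 at an unadjusted p under 0.05) and 7 epithelial markers were called as higher. Of 20 tested myeloid and dendritic markers, 4 rose on the deposited scale and 1 after scaling, with summed levels of 856, 1221, 672 and 1755 RPKM over all 24. Fewer or more cells of a type and less or more RNA per cell cannot be told apart in such libraries.

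Among the 20 receptors, 18 had reads in at least 1 library and 14 passed the filter on low values. Ccr8 fell in Gata3-KO cells. This 1 receptor called lower of 14 stands beside 0.686% of all tested genes, and after median-ratio scaling 0 of 14 were called (5 at an unadjusted p under 0.05) beside 1.02%. Limma-voom on recovered reads also called 0 of them. The median receptor difference was 0.32, against 0.43 for all tested genes (−0.16 against 0.04 after scaling). Both Gata3-KO libraries lay above both controls for 5 receptors (53.9% of all tested genes) and below them for 4 (7.56%). After scaling these counts were 4 (29.8%) and 6 (25.5%).

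**Figure D1:**
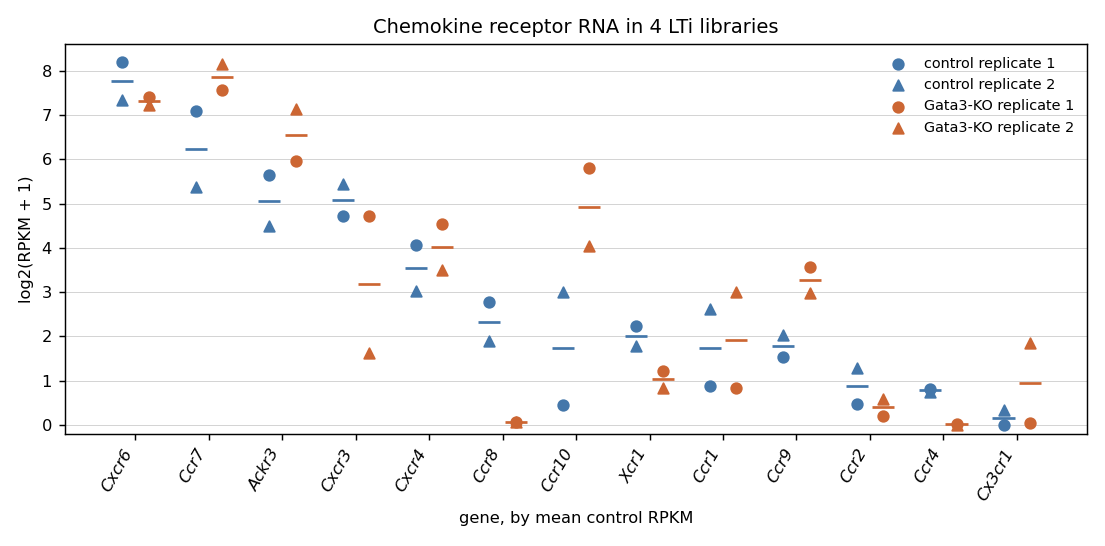
Levels of tested chemokine receptors in each library, as log2(RPKM + 1), ordered by mean control RPKM. Circles are replicate 1 and triangles replicate 2, blue for control and orange for Gata3-KO, and short lines are the means of the log values. Ccr8 lies near 0 in both Gata3-KO libraries, and Ccr9 and Ccr10 lie above both controls in both.

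Ccr8, a receptor for Ccl1 and, in the mouse, Ccl8 that is known from type 2 helper and regulatory T cells and skin-homing lymphocytes, measured 5.81 and 2.73 RPKM in control against 0.036 RPKM in each Gata3-KO library. These levels rest on 96 and 40 reads in control and 1 read in each Gata3-KO library, although the latter were the deeper libraries. The groups did not overlap. Its log2 difference was −2.28 ± 0.39 (SE; limma adjusted p = 0.0281). As a ratio of reads per library read, Ccr8 was 122-fold higher in control, with a 95% exact interval of 33.1 to 1016 that covers counting error only. After median-ratio scaling the difference was −2.53 and the adjusted p 0.0572, not called, with a range of 0.0269 to 0.421 over 15 alternatives. The difference was −4.91 with a pseudocount of 0.1 and −6.25 with limma-voom.

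Because Ccr8 is the receptor that fell and the gene removed encodes a GATA factor, its promoter is shown with the 250 bases before the RefSeq start (GRCm38.p6, the build of the files' mm10 genome, chr9:120091883-120092132, plus strand). The 4 GATA motifs of 6 letters, AGATAA or AGATAG or TGATAA or TGATAG, were searched on both strands, and the match is in capitals.
Ccr8: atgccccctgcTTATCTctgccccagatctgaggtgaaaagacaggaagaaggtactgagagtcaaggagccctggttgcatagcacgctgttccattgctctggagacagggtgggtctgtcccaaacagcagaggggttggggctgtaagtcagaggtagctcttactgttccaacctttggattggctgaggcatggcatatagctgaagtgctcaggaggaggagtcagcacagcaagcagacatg
The match TTATCT, the reverse complement of AGATAA, begins 239 bases before the start. Such a match was in 14 of the 43 members with a promoter entry (32.6%), against 29.7% of all 27025 genes with an entry and 21.0% of the tested ones. The 43 members include genes that were not tested, so the share of tested genes is not a like comparison. A gene with several starts counted if any of its windows had a match. A match is letters only and says nothing of binding.

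Ccr4, a receptor for Ccl17 and Ccl22 on type 2 helper and regulatory T cells, was singled out after its values were seen, since it lies under the 1 RPKM chosen for naming. It measured 0.753 and 0.680 RPKM in control (30 and 24 reads) and 0.015 and 0 RPKM in Gata3-KO (1 and 0 reads). The groups did not overlap, and the ratio of reads per library read was 96.7-fold, with a 95% exact interval of 16.6 to 3890. On the log2 scale the difference was −0.77 ± 0.20, and it was not called (limma adjusted p = 0.0628). Ccr8 and Ccr4 both passed the filter through the control libraries alone.

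The most abundant receptor in control was Cxcr6, the receptor of Cxcl16 and a mark of tissue-resident lymphocytes, at 293, 161, 169 and 149 RPKM. Its groups overlapped and it was not called (−0.45 ± 0.36, limma adjusted p = 0.438). After median-ratio scaling both Gata3-KO libraries lay below both controls, as for 25.5% of all tested genes. The difference was then −1.05 and still not called (limma adjusted p = 0.145). Ccr7, which directs cells to lymph nodes through Ccl19 and Ccl21, stood at 136, 40.4, 190 and 286 RPKM. Both Gata3-KO libraries were above both controls, but the controls differed widely and the difference of 1.63 ± 0.60 was not called (adjusted p = 0.139). Ackr3, an atypical receptor that clears Cxcl12, stood at 49.0, 21.5, 61.7 and 141 RPKM (1.49 ± 0.54, limma adjusted p = 0.134). Cxcr4, the signalling receptor of Cxcl12, stood at 15.8, 7.09, 22.3 and 10.2 RPKM. Its groups overlapped, and its difference of 0.47 turned to −0.07 after median-ratio scaling.

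The gut-homing receptors Ccr9 and Ccr10 were above both controls in both Gata3-KO libraries and were not called; Ccr9 was called with a filter of 5 CPM. Ccr9, the receptor of Ccl25, measured 1.91, 3.09, 10.8 and 6.86 RPKM, with no overlap (1.48 ± 0.37, limma adjusted p = 0.0594). Ccr10, the receptor of Ccl27 and Ccl28, measured 0.365, 7.0, 55.0 and 15.4 RPKM. It had the highest log2 difference of the tested receptors, 3.20, and an SE of 1.08 (adjusted p = 0.141). Jchain, which plasma cells use to join IgA molecules, stood at 144, 289, 2128 and 793 RPKM, the same order of libraries as Ccr10, and Igha, the IgA heavy chain, added to the lists after the data were seen, at 3053, 8578, 56209 and 20135 RPKM. The part of plasma cell RNA in the Ccr10 level was not tested.

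Cxcr3, the receptor of Cxcl9, Cxcl10 and Cxcl11 on type 1 lymphocytes, measured 25.5, 42.6, 25.4 and 2.07 RPKM. Gata3-KO replicate 2 stood far below the other 3 libraries, Gata3-KO replicate 1 lay just under control replicate 1, and the difference of −1.92 ± 1.15 was not called (limma adjusted p = 0.343). Tbx21, the transcription factor of type 1 lymphocytes, from a list of natural killer and type 1 innate lymphoid markers added after the data were seen, stood at 6.22, 29.3, 7.96 and 0.588 RPKM, the highest and lowest libraries being those of Cxcr3. On that list 2 of 11 tested markers fell and 0 rose, beside 0.686% and 8.28% of all tested genes, and 1 was called as lower after scaling. Ncr1, which encodes the NKp46 that the sort gated out, stood at 6.84, 14.8, 0.056 and 0.428 RPKM. The part of such cells in the Cxcr3 level was not tested.

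Xcr1, known from cross-presenting dendritic cells, measured 3.69, 2.43, 1.34 and 0.768 RPKM, with no overlap and no call (−0.98 ± 0.36, limma adjusted p = 0.129). Ccr1, an inflammatory receptor of myeloid cells, measured 0.840, 5.10, 0.770 and 6.95 RPKM. It was high in replicate 2 of both genotypes, and its difference of 0.16 turned to −0.26 after scaling. Cx3cr1, the receptor of Cx3cl1 on monocytes and macrophages, measured 0, 0.254, 0.022 and 2.61 RPKM, so that its Gata3-KO mean came almost wholly from replicate 2. Csf1r, a macrophage receptor on the myeloid list, stood at 1.03, 4.79, 0.658 and 24.4 RPKM, the same order of libraries as Ccr1, and the part of macrophage RNA in these levels was not tested. The other tested receptor, Ccr2, is a monocyte receptor under the 1 RPKM level and its groups overlapped. Ccr3, Ackr1, Ackr2 and Ackr4 had reads but were not tested and reached at most 0.510 RPKM. The neutrophil receptors Cxcr1 and Cxcr2 had no reads in any library.

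Of the 38 ligands, 28 had reads and 20 were tested. Ccl6 and Ccl9 rose and Cxcl9 fell in Gata3-KO cells. The 2 called higher and 1 called lower of 20 stand beside 8.28% and 0.686% of all tested genes; after median-ratio scaling Ccl6 and Cxcl9 were still called, beside 0.581% higher and 0.434% lower. The median ligand difference was 0.58 (0.20 after scaling). Both Gata3-KO libraries lay above both controls for 8 ligands and below them for 4 (53.9% and 7.56% of all tested genes), and for 7 and 5 after scaling (29.8% and 25.5%).

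**Figure D2:**
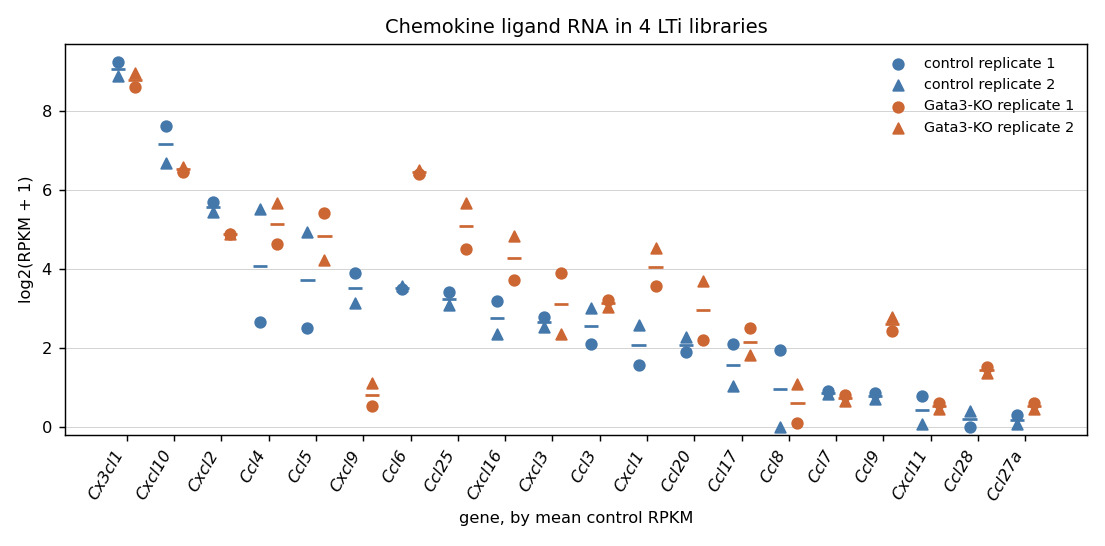
Levels of the 20 tested chemokine ligands in each library, as log2(RPKM + 1), ordered by mean control RPKM. Symbols and colours stand for replicate and genotype, and short lines are the means of the log values. Ccl6 and Ccl9 are higher and Cxcl9 lower in both Gata3-KO libraries, whereas Cx3cl1, the highest ligand, overlaps between genotypes.

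Ccl6, a CC chemokine of mice made mainly by myeloid cells, measured 10.2 and 10.8 RPKM in control against 83.5 and 89.7 RPKM in Gata3-KO. The replicates of each genotype lay close together and the groups far apart. The mean was 8.25-fold higher in Gata3-KO and the log2 difference 2.93 ± 0.25 (limma adjusted p = 0.00881). It was 2.36 after median-ratio scaling (adjusted p = 0.0384), with a range of 0.00213 to 0.421 over 16 alternatives, and Ccl6 was the member that limma-voom on the recovered reads also called (adjusted p = 0.0184).

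Ccl9, a ligand of Ccr1, measured 0.814 and 0.630 RPKM in control against 4.36 and 5.89 RPKM in Gata3-KO, a 7.10-fold higher mean with no overlap. Its log2 difference was 1.82 ± 0.33 (limma adjusted p = 0.0325). After scaling it was 1.45 with an adjusted p of 0.0824, not called, and the range over 16 alternatives was 0.0121 to 0.424. The low end of this range came from the filter of 5 CPM. Ccl9 passed that filter through the Gata3-KO libraries alone (35 and 24 reads in control, 319 and 425 in Gata3-KO). With limma-voom the difference was 2.79. Ccl9 and Ccl6 are neighbours on chromosome 11. The tested myeloid markers had a median difference of 0.76 (0.41 after scaling), and 7 of 20 were above both controls in both Gata3-KO libraries, beside 53.9% of all tested genes. Their part in the Ccl6 and Ccl9 levels was not tested.

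Cxcl9, a ligand of Cxcr3 that is induced by interferon gamma, measured 13.97 and 7.77 RPKM in control against 0.439 and 1.16 RPKM in Gata3-KO. The groups did not overlap, the control mean was 13.6-fold higher, and the log2 difference was −2.70 ± 0.41 (limma adjusted p = 0.0236; after scaling −3.10, adjusted p = 0.0472, and 0.00717 to 0.421 over 16 alternatives). The low end of this range came from the filter of 5 CPM. Cxcl9 passed that filter through the control libraries alone (580 and 286 reads in control, 31 and 81 in Gata3-KO). The other ligands of Cxcr3 did not share a call. Cxcl10, also induced by interferons, measured 196, 102, 86.1 and 95.02 RPKM (−0.64 ± 0.37, limma adjusted p = 0.295), with both Gata3-KO libraries lower. After median-ratio scaling the Cxcl10 difference was −1.23 and still not called (limma adjusted p = 0.115).

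The promoters of the 3 called ligands are shown because Ccl6 and Ccl9 moved together and Cxcl9 the other way. Each is the 250 bases before the RefSeq start (GRCm38.p6), on the minus strand: Ccl6 at chr11:83593088-83593337, Ccl9 at chr11:83578637-83578886 and Cxcl9 at chr5:92328080-92328329. 
Ccl6: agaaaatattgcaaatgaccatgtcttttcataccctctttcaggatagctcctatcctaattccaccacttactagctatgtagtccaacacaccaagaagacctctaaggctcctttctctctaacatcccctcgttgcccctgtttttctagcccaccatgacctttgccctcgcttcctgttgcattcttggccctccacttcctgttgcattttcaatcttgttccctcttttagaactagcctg
Ccl9: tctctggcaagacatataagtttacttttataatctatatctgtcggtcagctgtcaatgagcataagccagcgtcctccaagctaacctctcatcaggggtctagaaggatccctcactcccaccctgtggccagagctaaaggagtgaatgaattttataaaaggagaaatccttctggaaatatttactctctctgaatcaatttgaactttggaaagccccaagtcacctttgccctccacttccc
Cxcl9: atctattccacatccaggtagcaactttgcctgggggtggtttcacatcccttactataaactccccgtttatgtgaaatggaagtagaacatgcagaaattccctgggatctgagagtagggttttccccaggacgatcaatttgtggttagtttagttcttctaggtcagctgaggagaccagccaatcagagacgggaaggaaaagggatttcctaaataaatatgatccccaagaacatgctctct
None of the 3 windows held a match to the 4 GATA motifs, so nothing in them is in capitals, and nothing follows about the factor. Of the 4 called members with a promoter entry, Ccr8 was the member with a match.

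**Figure D3:**
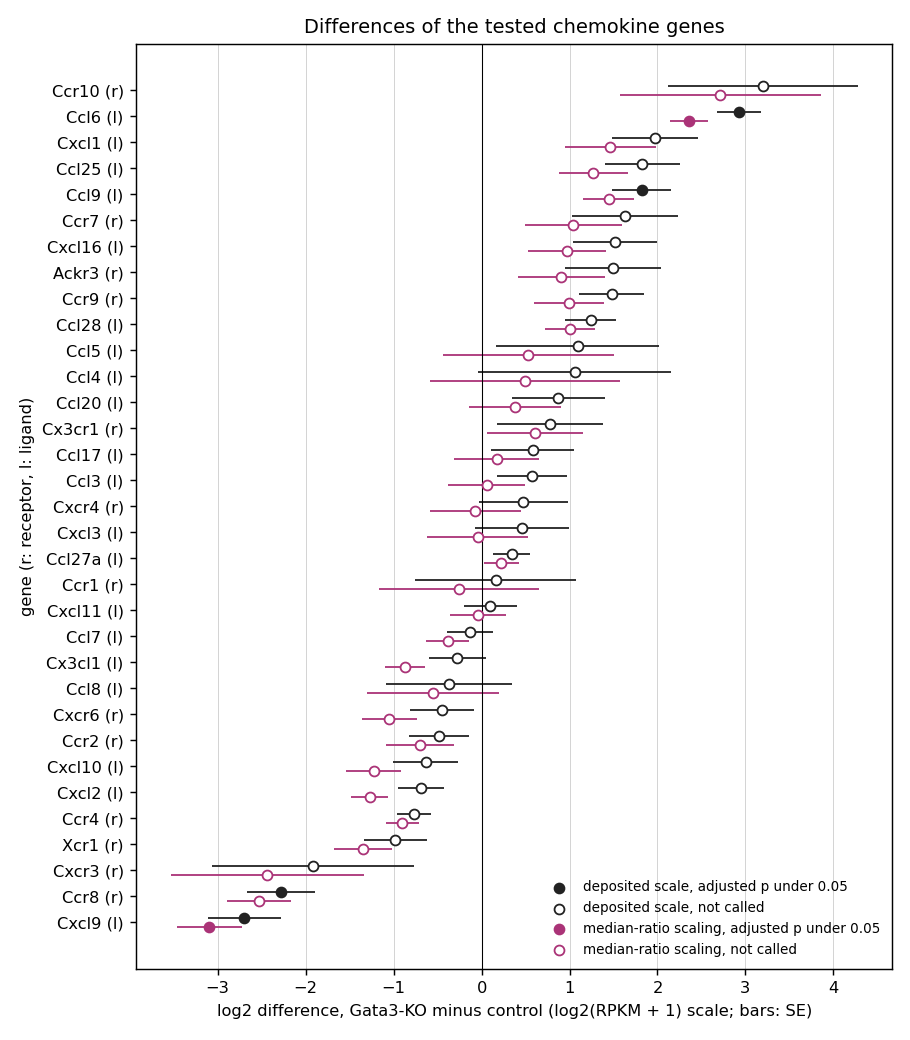
Log2 differences (Gata3-KO minus control) of tested members with their SE, on the deposited scale (black) and after median-ratio scaling (purple); filled points have an adjusted p under 0.05. Ccl6 and Cxcl9 are filled on both scales, Ccl9 and Ccr8 on the deposited scale alone, and Ccr10 and Cxcr3 have wide errors.

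Cx3cl1, the membrane-bound ligand of Cx3cr1, was the highest ligand in every library, at 598, 467, 384 and 495 RPKM. Its groups overlapped and it was not called (−0.28 ± 0.32, limma adjusted p = 0.602). After median-ratio scaling both Gata3-KO libraries lay below both controls, as for 25.5% of all tested genes. The difference was then −0.87 and still not called (limma adjusted p = 0.117). Cxcl2, which draws neutrophils through Cxcr2, measured 51.1, 42.4, 28.4 and 28.4 RPKM. Both Gata3-KO libraries were lower, with no call (−0.69 ± 0.26, limma adjusted p = 0.139). After median-ratio scaling the Cxcl2 difference was −1.27 and still not called (limma adjusted p = 0.0631). Cxcl1, another ligand of Cxcr2, measured 1.98, 4.96, 10.9 and 22.2 RPKM. It was higher in both Gata3-KO libraries and not called (1.98 ± 0.49, limma adjusted p = 0.0576). It was called with a filter of 5 CPM, which it passed through the Gata3-KO libraries alone. Cxcl3, a related neutrophil chemokine, measured 5.87, 4.83, 13.97 and 4.08 RPKM, and its direction turned from 0.46 to −0.04 after scaling. These 3 ligands of Cxcr2 therefore had no shared direction, in libraries without Cxcr2 reads.

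Ccl25 and Ccl28, both known as products of gut epithelium, had higher values in both Gata3-KO libraries than in either control. Ccl25 measured 9.61, 7.56, 21.7 and 49.5 RPKM (1.83 ± 0.43, limma adjusted p = 0.0516) and Ccl28 measured 0, 0.338, 1.86 and 1.61 RPKM (1.24 ± 0.29, limma adjusted p = 0.0512). Both lay without overlap just outside the threshold, and with the filter of 5 CPM both were called. Ccl28 passed that filter through the Gata3-KO libraries alone (0 and 16 reads in control, 169 and 144 in Gata3-KO). Cxcl16, the ligand of Cxcr6, measured 8.09, 4.13, 12.3 and 27.5 RPKM, also without overlap (1.51 ± 0.48, limma adjusted p = 0.0984). Ccl20, the ligand of Ccr6, measured 2.70, 3.84, 3.64 and 11.9 RPKM, with overlap. Epcam, an epithelial surface protein, stood at 21.7, 20.5, 135 and 163 RPKM and was called as higher (limma adjusted p = 0.0110). The part of epithelial RNA in these ligand levels was not tested.

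The inflammatory CC ligands Ccl3, Ccl4 and Ccl5, which draw T cells and macrophages, were not called. Ccl4 measured 5.30, 44.7, 23.7 and 49.7 RPKM, Ccl5 measured 4.73, 29.8, 41.9 and 17.7 RPKM, and Ccl3 measured 3.28, 7.09, 8.23 and 7.29 RPKM. For Ccl4 and Ccl5, control replicate 1 was far below the other 3 libraries, and without control replicate 1 both differences changed sign. RefSeq spans of Ccl3 and Ccl4 overlap, and reads of overlapping genes cannot be told apart without strand. Ccl17, a ligand of Ccr4, measured 3.27, 1.07, 4.64 and 2.52 RPKM, and Ccl8, a ligand of Ccr8, 2.87, 0, 0.080 and 1.14 RPKM. Neither was called. Ccl12, a monocyte chemokine, was not tested. It measured 0.653 and 1.47 RPKM in control (15 reads in all) and had no reads in Gata3-KO. With 3 reads put in place of the 0 over the Gata3-KO group, the ratio of reads per library read was 8.95. The 95% exact lower bound on the ratio was 6.42.

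Ccl2, Ccl11 and Cxcl12, stromal and endothelial chemokines singled out after their values were seen, had their highest level in control replicate 2, at 0.392, 0.883 and 0.320 RPKM, and none in control replicate 1. Of 19 stromal and endothelial markers, 8 were at 0 in control replicate 1 and 2 in control replicate 2, and 0 of 16 tested were called (limma, 1 at an unadjusted p under 0.05). The part of stromal RNA was not tested. Ccl7, Cxcl11 and Ccl27a, the other tested ligands, were under 1 RPKM in every library, and Ccl1, Cxcl14, Cxcl15 and Ccl22 had reads in Gata3-KO replicate 2 alone. No reads were listed for 10 ligands. These were Ccl19, Ccl21a, Ccl21b and Ccl21c, the ligands of Ccr7, Cxcl13, the ligand of Cxcr5, and Cxcl5, Cxcl17, Ccl24, Ccl26 and Ccl27b. The Ccl21 and Ccl27 genes have near-identical copies, whose reads a counter can drop as ambiguous, so their zeros are uncertain.

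Several receptors and ligands can be read as pairs. Ccr8 fell, while its ligand Ccl1 had reads in Gata3-KO replicate 2 alone (0.578 RPKM). Its ligand Ccl8 differed between the controls, at 2.87 and 0 RPKM. Cxcl9 fell while its receptor Cxcr3 was far below the controls in Gata3-KO replicate 2 alone. The receptors Ccr9 and Ccr10 and their ligands Ccl25 and Ccl28 had values above both controls in both Gata3-KO libraries, as had 53.9% of all tested genes. None of them was called with the main filter. After median-ratio scaling their limma adjusted p was 0.229, 0.253, 0.154 and 0.138, in that order.

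Many of the genes lie in clusters, which allowed neighbours to be compared. In the receptor cluster of chromosome 9, Xcr1 and Cxcr6, close to Ccr9, had lower means in Gata3-KO, whereas that of Ccr9 was higher, and none of the 3 was called with the main filter. In the CC ligand cluster of chromosome 11, with 11 members, Ccl9 and Ccl6 were both called, whereas Ccl5, Ccl3 and Ccl4 beside them were not. In the CXC cluster of chromosome 5, with 9 members, Cxcl9 fell while Cxcl10 and Cxcl11 next to it were not called. All 5 of these CC neighbours had positive differences, as had 14 of the 20 tested ligands, and the median tested gene lay 0.43 higher. After median-ratio scaling the difference of Ccl3 was 0.06, and without control replicate 1 those of Ccl4 and Ccl5 changed sign. Cxcl9 and Cxcl10 had negative differences.

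**Figure D4:**
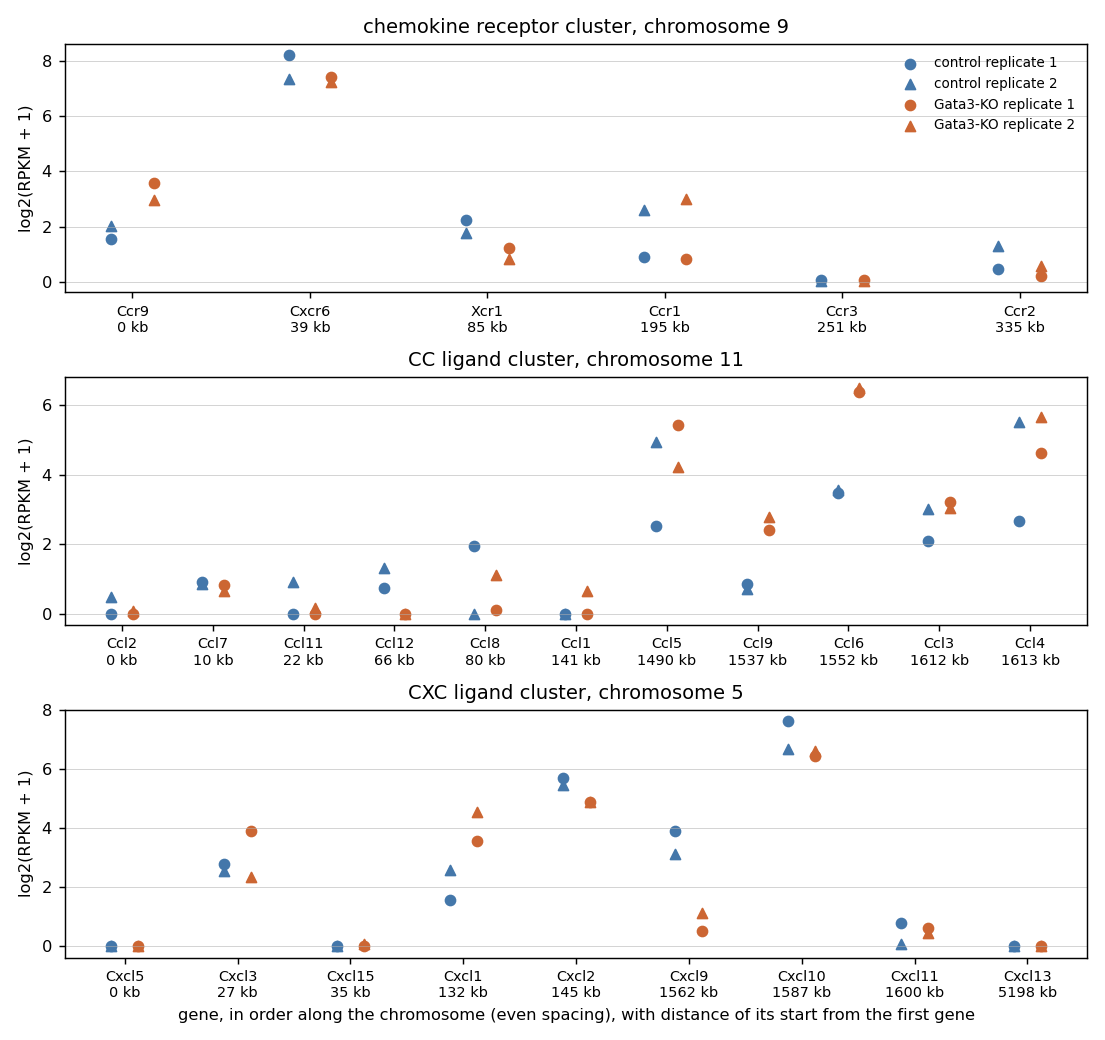
Levels, as log2(RPKM + 1), of members in 3 gene clusters, in chromosome order with even spacing; the kb value under each gene is the distance of its lower end from that of the first gene (RefSeq, GRCm38.p6). Circles and triangles are replicates 1 and 2, blue for control and orange for Gata3-KO. Ccl9 and Ccl6 are higher in both Gata3-KO libraries, and Cxcl9 is lower while Cxcl10 beside it is high in all.

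Other genes of the pathway were counted from lists. Of 68 tested genes of chemokine receptor signalling (G-protein subunits, kinases, arrestins and adhesion regulators), 3 rose and 1 fell, beside 8.28% and 0.686% of all tested genes. Gna13, a G-protein subunit, fell from 66.9 and 53.8 to 25.4 and 23.5 RPKM (−1.26, limma adjusted p = 0.0420) and was the gene of the list still called after scaling. Plcb3, a phospholipase activated by G proteins, rose from 0.534 and 4.10 to 15.9 and 25.9 RPKM. Gna11, a subunit that activates such phospholipases, rose from 5.02 and 4.94 to 14.4 and 34.4 RPKM, and Stk4, a kinase of lymphocyte adhesion, from 15.3 and 13.1 to 32.1 and 34.9 RPKM. The median of the list was 0.42, against 0.43 for all tested genes. Of 18 other chemoattractant receptors 2 rose and 0 fell, beside the same shares. Gpr18, a receptor of gut lymphocytes, rose from 18.5 and 19.6 to 129 and 92.0 RPKM (2.46, limma adjusted p = 0.0158), and S1pr3, a sphingosine 1-phosphate receptor, from 1.14 and 1.13 to 4.59 and 6.88 RPKM. Neither was called after scaling, when 7 of the 18 had an unadjusted p under 0.05. Among chemokines that the symbol rule leaves out, Pf4, a platelet chemokine, rose from 0 in both controls to 2.38 and 2.91 RPKM (limma adjusted p = 0.0232), and passed the filter on low values through the Gata3-KO libraries alone. Of the 4 such chemokines tested, 0 were called after scaling (2 at an unadjusted p under 0.05). Xcl1, the ligand of Xcr1, stood at 0.975, 52.2, 1.88 and 0.166 RPKM, high in control replicate 2 alone, as Tbx21 was.

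With 2 libraries in each genotype, no call survived leaving out any 1 of the 4 libraries on the deposited scale. Without control replicate 1, control replicate 2, Gata3-KO replicate 1 or Gata3-KO replicate 2 in turn, the adjusted p ranged from 0.0785 to 0.241 for Ccr8, from 0.0750 to 0.215 for Ccl6, from 0.105 to 0.237 for Ccl9 and from 0.0821 to 0.215 for Cxcl9 (limma). The directions of these 4 genes were kept in all of these fits.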

How the data were processed

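RNA from sorted LTi cells was made into libraries by the Smart-seq2 method, per the labels' protocols, 2 for each genotype. Subread and featureCounts with the mm10 genome are named in the submitters' processing notes; no source used here gives their versions. The authors deposited log2 values for 27179 genes, found from the values to be log2(RPKM + 1) with 0.0001 added, where 0.0001 means no reads. Scaling between libraries beyond read totals was not found. RPKM was computed back from these values, and read numbers were recovered from the steps between low values: 99.99% of 19047 genes with reads came out whole within 0.001. Reads of genes seen in 1 library alone are ambiguous, so RPKM is printed for them. Genes with at least 0.523 CPM (10 reads in a library of median depth) in 2 libraries and 15 reads in all were tested with limma 3.58.1 (R 4.3.3, trend and robust) on log2(RPKM + 1), without covariates, after a test on simulated data.

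Alternatives were median-ratio and upper-quartile scaling, no filter, a filter of 5 CPM, a pseudocount of 0.1, limma-voom on recovered reads, a replicate block, and each library left out. Members and gene lists were chosen with earlier results of these data known. Named were members called on either scale, members with a mean of at least 1 RPKM in either genotype, members without reads, up to 4 called genes per pathway list by adjusted p, and Gata3, Ccr6 and Cxcr5; others are said to be singled out. Sequences are from RefSeq (GRCm38.p6): 58 members matched by gene identifier and 43 had a promoter entry. Some genes are not reported here, in text or plots, though counts include them.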

Additional observations from a re-analysis of the deposited data

How the results depend on the processing

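The counts called on the deposited scale were 1280 of all tested genes, 2 receptors, 3 ligands and 7 genes of the 3 pathway lists. They were 145, 0, 2 and 1 with median-ratio scaling and 179, 0, 2 and 1 with upper-quartile scaling. No filter gave 0 in all 4 groups, with 4336 genes at an unadjusted p under 0.05. The filter of 5 CPM, which tests 9963 genes, gave 1719, 2, 6 and 10, with Ccr9, Ccl25, Ccl28 and Cxcl1 gained. Of these, Ccl28 and Cxcl1 passed that filter through the Gata3-KO libraries alone. Among the members already called, Ccl9 also passed it through Gata3-KO alone, and Cxcl9 through the control libraries alone. The pseudocount of 0.1 gave 850, 2, 3 and 3, and limma-voom gave 221, 0, 1 and 1. The replicate block gave 1026, 2, 4 and 4, and median-ratio scaling with the replicate block gave 26, 0, 0 and 0. Nothing states whether libraries with the same replicate number share a batch. The deviations of the replicate 1 libraries correlated at −0.02 across genes. This cannot decide the question, since a correlation over all genes can miss a batch that moves some of them. Leaving out 1 library gave 0 to 0 calls in each of the 4 groups (limma; 2402 to 3816 genes at an unadjusted p under 0.05), with the lone library assumed to vary like the others. With median-ratio scaling as well, it gave 0 to 85 (8 without control replicate 1), 0 to 0, 0 to 1 and 0 to 0. The cause of these changes was not tested. No called member changed direction under any alternative, and of 29 named members tested Cxcr4, Ccr1 and Cxcl3 changed sign with either scaling. Ccr8 and Ccr4, at 0 to 1 reads in each Gata3-KO library, are limited by depth in the size of their difference.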
